A study of Tupaia belangeri with 6 samples.

Results

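The genes examined were those that make, load, take up and break down GABA, and those that encode the GABA-B receptor, in the prefrontal cortex of adult Chinese tree shrews. The list had 7 members, chosen by symbol: the synthetic enzymes GAD1 and GAD2, the vesicular transporter SLC32A1, the uptake transporter SLC6A11, the catabolic enzyme ABAT and the receptor subunits GABBR1 and GABBR2. Of these, 6 members had a row in the gene tables under their own symbol, among 22608 loci with a symbol and 95863 loci in all. ABAT had no row under its symbol and no level is given for it. All 6 members with a row passed the filter on low values, which asked for at least 0.1 TPM in 3 or more libraries.

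RNA was taken from 3 females (numbered 1, 3 and 4) and 3 males (numbered 1, 4 and 5), with 1 library from each animal. The animals came from one laboratory animal center, were of no stated line or genotype, and no experimental treatment is described. The study lists older males than females, and age and sex therefore cannot be told apart. Levels were given as TPM, a transcript abundance scaled for transcript length and for the library, so that levels may be compared between genes.

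GABA is the main inhibitory transmitter of the cortex. It is made from glutamate by the glutamate decarboxylases GAD67, the product of GAD1, and GAD65, the product of GAD2, is packed into synaptic vesicles by the vesicular transporter VGAT, the product of SLC32A1, and is cleared by plasma membrane transporters such as GAT-3, the product of SLC6A11, which is known mainly from astrocytes. GABA transaminase, encoded by ABAT, begins its breakdown. The GABA-B receptor is an obligate pair of proteins, in which the product of GABBR1 binds GABA and the product of GABBR2 couples to G proteins.

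SLC32A1 was the most abundant member, followed by GAD1 and GABBR1, and each of these 3 genes was higher in TPM than GABBR2, GAD2 and SLC6A11 in all 6 libraries. The mean levels were 238.5 ± 79.8 TPM for SLC32A1, 177.2 ± 69.6 TPM for GAD1, 169.1 ± 22.4 TPM for GABBR1, 53.8 ± 9.51 TPM for GABBR2, 49.5 ± 32.9 TPM for GAD2 and 48.2 ± 12.8 TPM for SLC6A11 (SD, n = 6 libraries). The TPM ranges of the upper 3 genes over the libraries did not overlap those of the lower 3. Within each trio the ranges in TPM overlapped, so neighbours in the order were not separated beyond their spread on that scale: SLC32A1 exceeded GAD1 in 5 of 6 libraries and GAD1 exceeded GABBR1 in 3 of 6. By mean level SLC32A1 ranked 495 and SLC6A11 ranked 3017 among 12782 tested genes with a symbol.

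The members differed in how far they ranged over the libraries. GAD2 spanned a 10.2-fold range over the 6 libraries and GABBR1 a 1.41-fold range. The SD of log2(TPM + 1) was 1.30 for GAD2, larger than that of 99.0% of the 10782 genes with a symbol and a mean of at least 1 TPM, 0.53 for GAD1, larger than that of 81.4%, and 0.20 for GABBR1, larger than that of 14.5%.

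**Figure D1:**
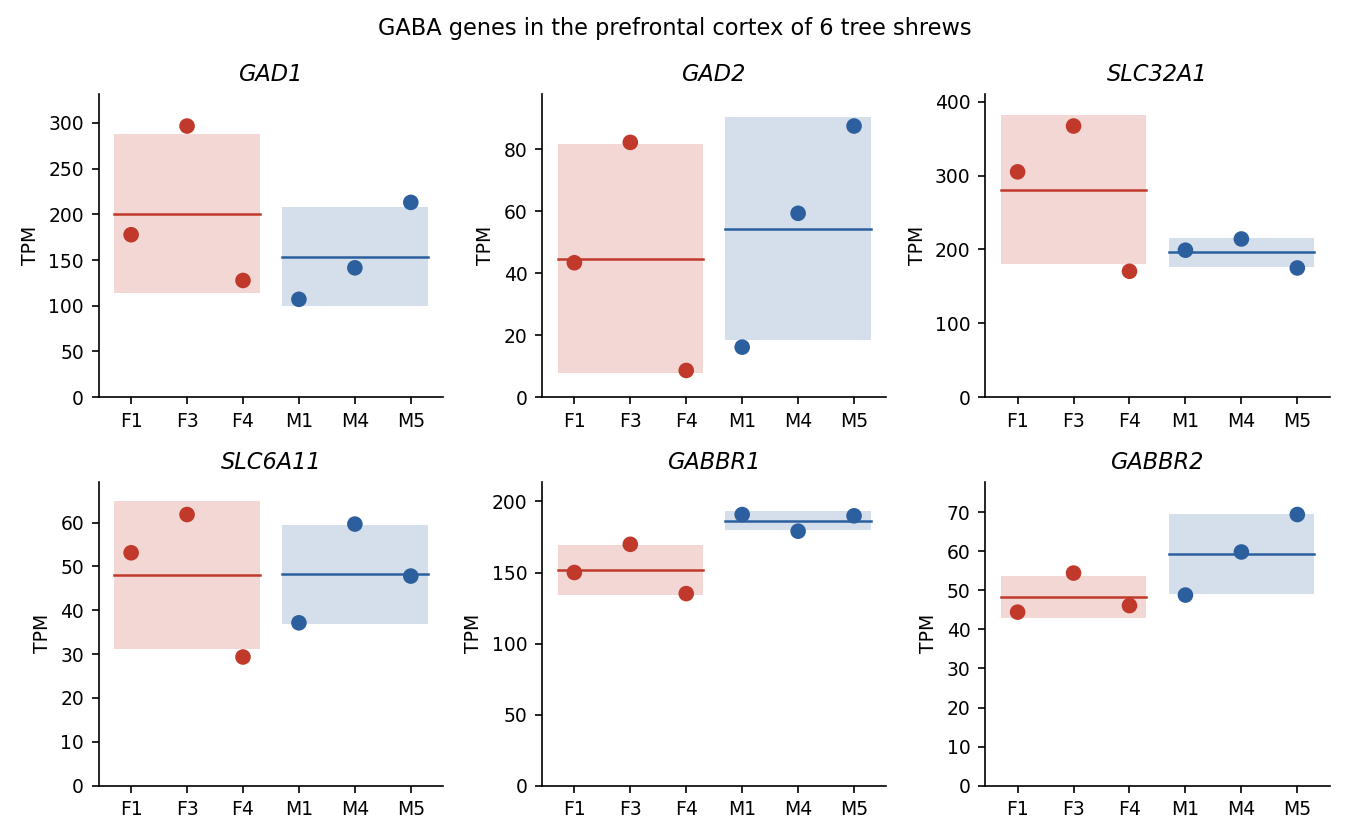
Level of each member in TPM (y axis, from 0, a separate scale for each gene) in the 6 libraries (x axis: F female, M male, with the animal number). Points are libraries, lines the mean of 3 libraries and bands ± 1 SD; GAD2 is lowest in F4 and M1, and in GABBR1 every male lies above every female.

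GAD1, the gene of the decarboxylase found throughout the neuron, lay on chromosome 1 of TS_3.0 (plus strand, 152399502 to 152507623). Its level was 177.7 TPM in female 1, 296.6 in female 3 and 127.7 in female 4, and 107.0 TPM in male 1, 141.5 in male 4 and 213.1 in male 5. Female 3 was the highest library and male 1 the lowest, and the sexes overlapped. The means were 200.6 ± 86.8 TPM in females and 153.9 ± 54.1 TPM in males (SD, n = 3 each). On the log2(TPM + 1) scale the female mean was higher by 0.35 (SE 0.34, 95% interval -0.43 to 1.14, limma with Benjamini-Hochberg adjusted p = 0.934), which is within the spread between animals.

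GAD2, the gene of the decarboxylase concentrated at nerve terminals, lay on chromosome 2 (minus strand, 12006625 to 12102271). Its level was 43.3 TPM in female 1, 82.2 in female 3 and 8.61 in female 4, and 16.1 TPM in male 1, 59.3 in male 4 and 87.4 in male 5. Female 4 and male 1 were below the other 4 libraries, so that each sex held a low library. The mean was 44.7 ± 36.8 TPM in females and 54.3 ± 35.9 TPM in males, a log2 difference of -0.46 (SE 0.82, 95% interval -2.32 to 1.41, limma with Benjamini-Hochberg adjusted p = 0.967). The direction was set by single animals: the difference was 0.43 without female 4 and 0.03 without male 5.

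The 2 decarboxylase genes did not hold a fixed proportion. The ratio of GAD1 to GAD2 in TPM was 4.10 in female 1, 3.61 in female 3 and 14.8 in female 4, and 6.63 in male 1, 2.39 in male 4 and 2.44 in male 5. GAD1 was the higher gene in 6 of 6 libraries, and the ratio was highest in the libraries where GAD2 was lowest, female 4 and male 1. The mean log2 ratio was 2.59 ± 1.13 in females and 1.76 ± 0.84 in males, and the difference of 0.84 did not pass a two-sided exact permutation test (p = 0.5, where 3 against 3 libraries cannot give less than 0.1). It was 0.19 without female 4 and 1.32 without male 1.

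The levels of GAD1, SLC6A11 and GABBR2 depended on which deposited column was read. Beside TPM the tables give the mean read coverage of each locus. In each library 1 ratio of TPM to coverage was the most common, shared by 39.1% to 55.1% of the loci above 1 TPM. GAD2 and SLC32A1 stood at that ratio in all 6 libraries. Multiplying coverage by this ratio gives a second level in the same units, called the coverage-based level here. It was chosen after the values had been seen.

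GAD1's TPM was 2.34 to 2.73 times its coverage-based level in 5 libraries and 1.51 times in male 1. On the coverage-based scale GAD1 stood at 67.7 in female 1, 109.3 in female 3 and 54.7 in female 4, and at 71.0 in male 1, 57.0 in male 4 and 77.9 in male 5, a 1.999-fold range in place of 2.77-fold. Male 1 was then the third highest library and no longer the lowest. The ratio of GAD1 to GAD2 on this scale ran from 0.89 in male 5 to 6.35 in female 4, and GAD1 exceeded GAD2 in 4 of 6 libraries and GABBR1 in 0 of 6. For SLC6A11 the TPM was 3.71 to 4.43 times the coverage-based level, whose mean was 12.4 ± 3.52, and for GABBR2 it was 2.04 times in all libraries, with a mean of 26.4 ± 4.67 (SD, n = 6).

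The order of the members was therefore different on the coverage-based scale. SLC32A1, from 170.5 to 367 in the 6 libraries, lay wholly above GABBR1, from 116 to 169, which lay wholly above GAD1. SLC6A11, from 7.80 to 15.9, lay wholly below GABBR2, from 21.8 to 34.1, and GABBR2 exceeded GAD2 in 2 of 6 libraries. Which scale is right was not tested, since the tables hold gene values and no transcript values.

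**Figure D2:**
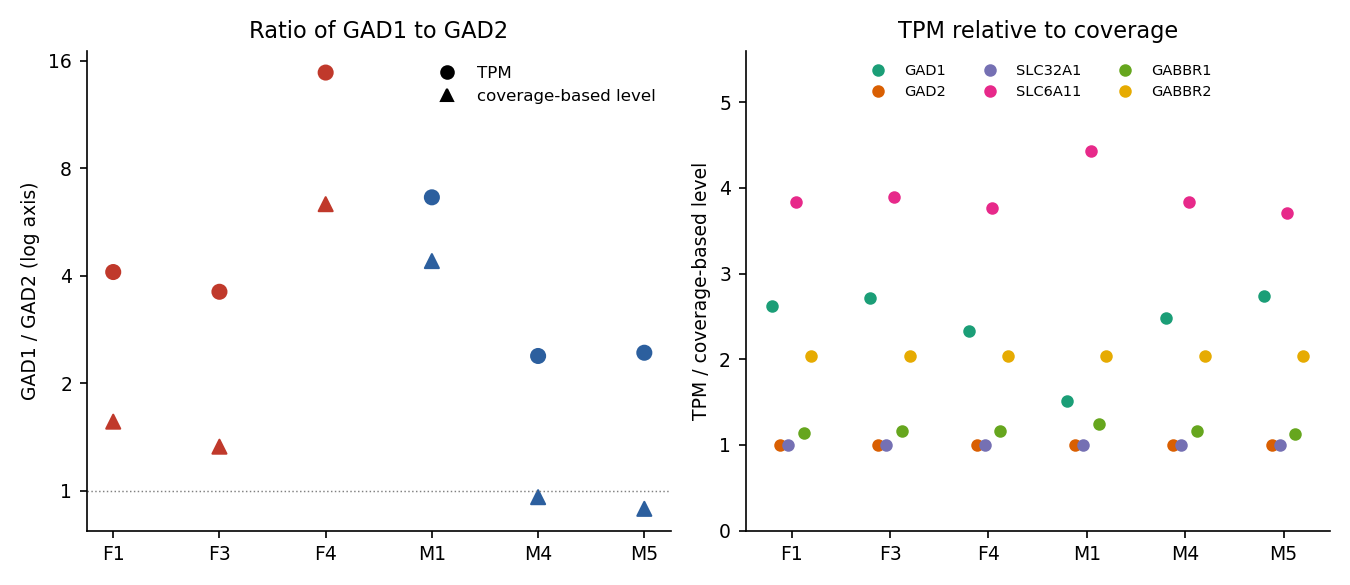
Left, ratio of GAD1 to GAD2 (y axis, log scale) in each library (x axis: F female in red, M male in blue) from TPM (circles) and from the coverage-based level (triangles); both are highest in F4 and M1. Right, TPM divided by the coverage-based level for 6 members; GAD1 falls to 1.51 in M1 and SLC6A11 lies between 3.71 and 4.43.

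SLC32A1, whose product fills synaptic vesicles with GABA or glycine, lay in a span of 4495 bases on chromosome 9 (minus strand, 69185637 to 69190131). Its level was 305.1 TPM in female 1, 367.1 in female 3 and 170.5 in female 4, and 199.0 TPM in male 1, 214.2 in male 4 and 175.0 in male 5. Females 1 and 3 were above all 3 males, and female 4 was below them. The mean was 280.9 ± 100.6 TPM in females and 196.1 ± 19.8 TPM in males, a log2 difference of 0.45 (SE 0.28, 95% interval -0.19 to 1.09, limma with Benjamini-Hochberg adjusted p = 0.925).

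In TPM the ratio of SLC32A1 to GAD1 ranged less than its ratio to GAD2. Its TPM was 0.82 to 1.86 times that of GAD1 and 2.001 to 19.8 times that of GAD2. On the coverage-based level it was 2.25 to 4.50 times GAD1, and in males 4 and 5 its ratio to GAD2, at 3.61 and 2.001, was below its ratio to GAD1, at 3.76 and 2.25. The lowest value of both ratios was in male 5, where SLC32A1 was near its lowest level and GAD2 at its highest.

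SLC6A11, the gene of the transporter GAT-3, lay on chromosome 23 (plus strand, 15716531 to 15869317). Its level was 53.1 TPM in female 1, 61.8 in female 3 and 29.3 in female 4, and 37.1 TPM in male 1, 59.7 in male 4 and 47.8 in male 5. Female 4 was the lowest library and female 3 the highest, and the sex means were close, at 48.1 ± 16.8 TPM in females and 48.2 ± 11.3 TPM in males. The log2 difference was -0.04 (SE 0.30, 95% interval -0.73 to 0.64, limma with Benjamini-Hochberg adjusted p = 0.996), so that a difference of either sign within that interval could not be seen here. Without female 4 it was 0.27. The median astrocyte marker was also lowest in female 4 (-0.49 on the centred log2 scale) and highest in female 3 (0.24). Female 4 was low as well for the median marker of all neurons (-0.35) and of microglia (-0.31). The median gene of the wider GABA list was at -0.42 there. Not every list was low in female 4: the median oligodendrocyte marker stood at 0.24 and the median interneuron marker at 0.11. Its microglial markers summed to 230 TPM, which was not the lowest sum. The part of astrocytes, or of this library as a whole, in the level of SLC6A11 was not tested. A copy named SLC6A11li1, on the opposite strand inside the same span, was listed at 0 in all 6 libraries and was not added.

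ABAT could not be measured by name. In the RefSeq annotation of another assembly, TupChi_1.0, ABAT has TMEM186 and METTL22 as its neighbours. On chromosome 2 of TS_3.0, 4 loci without a symbol overlapped the interval between genes of these names. The most abundant of them was on the minus strand, from 76061915 to 76165464, and its level was 116.6 TPM in female 1, 140.8 in female 3 and 72.2 in female 4, against 108.4 TPM in male 1, 94.0 in male 4 and 107.4 in male 5. It is given by position, and its identity with ABAT was not tested. Its log2 difference was 0.04 (SE 0.25, limma with Benjamini-Hochberg adjusted p = 0.995).

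GABBR1, the gene of the ligand-binding subunit of the GABA-B receptor, lay on chromosome 3 (plus strand, 135679742 to 135733046). Its level was 150.0 TPM in female 1, 169.8 in female 3 and 135.2 in female 4, and 190.8 TPM in male 1, 179.1 in male 4 and 189.9 in male 5. Every male was above every female. The mean was 151.7 ± 17.4 TPM in females and 186.6 ± 6.52 TPM in males, a log2 difference of -0.30 (SE 0.16, 95% interval -0.67 to 0.07) that did not pass the threshold (limma with Benjamini-Hochberg adjusted p = 0.925).

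GABBR1 was 1 of 6 members in which the sexes did not overlap. Among 27996 autosomal genes, 4.97% had every male above every female and 9.81% did not overlap in either direction. With median-ratio scaling or quantile normalization GABBR2 did not overlap either, which made 2 members, against 9.90% and 9.84% of autosomal genes under these scalings. Markers of oligodendrocytes also differed in level between these animals: the 5 genes of 8 on that list with a row had a summed level between 463 and 621 TPM in the female libraries and between 107 and 357 TPM in the male libraries, and none of them was at 0 in any library. MAG, the most abundant of them, carried that separation: without it the sums ran from 140 to 275 TPM in the female libraries and from 43.1 to 211 TPM in the male libraries, which overlap. The precursor list, 3 of 4 genes with a row, had sums from 119 to 162 TPM in the female libraries and from 71.5 to 106 TPM in the male libraries, with no overlap. OLIG1, the most abundant of them, carried this separation: its lowest female value (112 TPM) exceeded its highest male value (88.7 TPM). The male values of PDGFRA (7.68 to 12.9 TPM) fell inside its female range (5.30 to 17.3 TPM). Those of VCAN (2.30 to 5.75 TPM) likewise fell inside its female range (1.66 to 7.39 TPM). Other markers also had every male above every female: CCK, NEUROD6 of cortical excitatory neurons, and DCN and COL1A1 of the meninges and vessel walls. DCN was at 3.80 to 5.597 TPM in the female libraries and 10.8 to 31.9 TPM in the male libraries. Their lists did not move as one. TAC3 of the interneuron list, and CLDN5 and FLT1 of the endothelial and meningeal list, had every female above every male. CLDN5 was at 33.5 to 60.7 TPM in the female libraries and 23.2 to 28.9 TPM in the male libraries. Of the 8 cortical excitatory markers tested, 7 had the higher mean in females and NEUROD6 did not. The part of any of these cells in the values of GABBR1 was not tested.

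GABBR2, the gene of the subunit that couples the receptor to G proteins, spanned 579758 bases of chromosome 2 (plus strand, 119262039 to 119841796). Its level was 44.4 TPM in female 1, 54.4 in female 3 and 46.1 in female 4, and 48.8 TPM in male 1, 59.8 in male 4 and 69.4 in male 5. Male 5 was the highest library, and male 1 lay below female 3, so that the sexes overlapped. The mean was 48.3 ± 5.35 TPM in females and 59.3 ± 10.3 TPM in males, a log2 difference of -0.28 (SE 0.19, 95% interval -0.72 to 0.15, limma with Benjamini-Hochberg adjusted p = 0.925). The difference was -0.41 without male 1 and -0.16 without male 5. GABBR2 shared its span with 11 loci on the opposite strand, NANS among them, whose summed level was 28.1% to 54.7% of its own, and no strand-specific library preparation is named, so that reads there may be assigned to either strand.

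The receptor subunits held a steadier proportion than the decarboxylases. The ratio of GABBR1 to GABBR2 was 3.38 in female 1, 3.12 in female 3 and 2.93 in female 4, against 3.91 in male 1, 2.99 in male 4 and 2.74 in male 5. GABBR1 was the higher gene in 6 of 6 libraries, and on the coverage-based level the ratio ran from 4.96 to 6.42. The SD of the log2 ratio was 0.18, against 1.001 for the ratio of GAD1 to GAD2, and the difference of the steadiness itself was not tested. The sexes differed by -0.02 in mean log2 ratio (two-sided exact permutation test, p = 0.9).

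No member passed the test between the sexes. With limma and a Benjamini-Hochberg adjusted p under 0.1, 0 of the 6 members were called, against 4 of 27996 autosomal genes (0.0143%), and 0 members had an unadjusted p under 0.05, against 1411 of the 27996. The fitted difference was above 0 in 2 members and below 0 in 4, with a median of -0.16 against -0.03 over all autosomal genes. In bulk tissue, fewer cells of a type and less RNA per cell cannot be told apart.

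**Figure D3:**
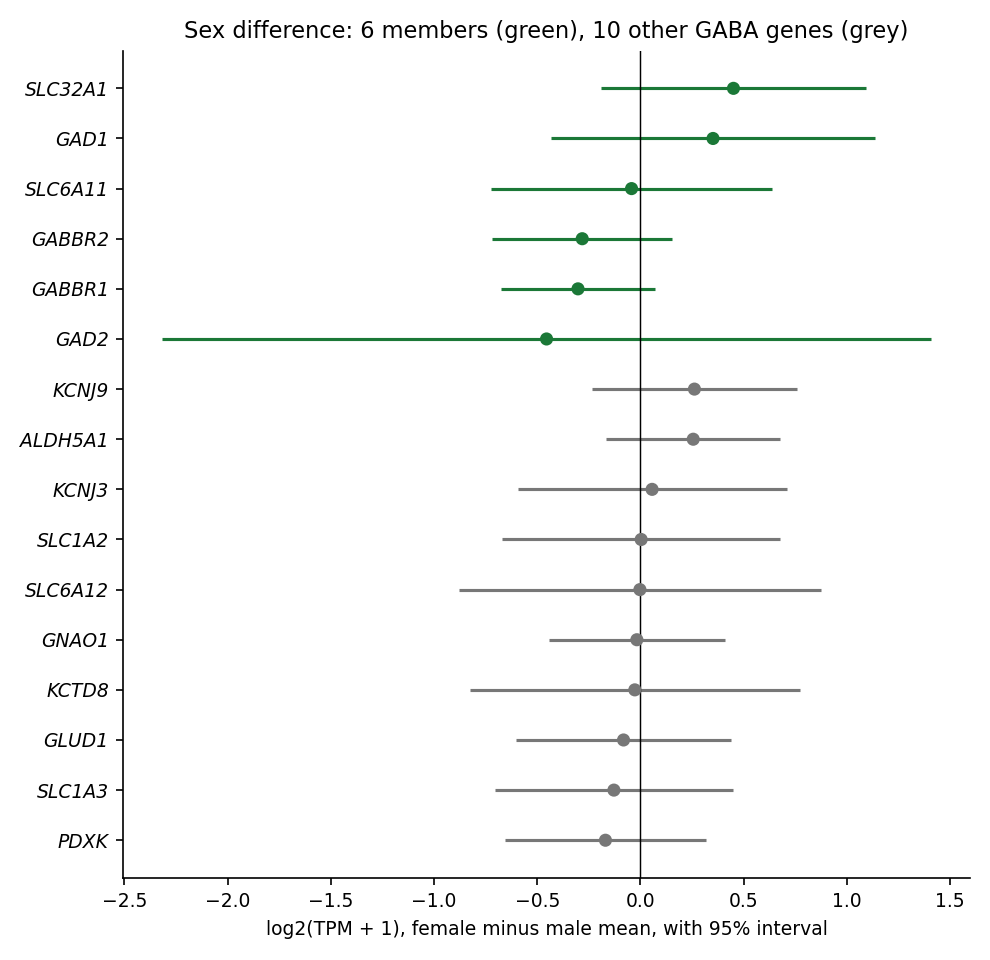
Female minus male mean of log2(TPM + 1) (x axis) with its 95% interval from limma for the 6 members (green) and the 10 tested genes of the wider GABA list that the text gives by name (grey). The interval of every gene includes 0, and that of GAD2 is the widest, from -2.32 to 1.41.

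A wider list of 35 genes of GABA metabolism and GABA-B signalling had 22 genes with a row, of which 18 were tested. Of the 18 genes, 0 were called by limma and 0 had an unadjusted p under 0.05, against the same 1411 of 27996 autosomal genes for the latter, with a fitted difference above 0 in 9 genes and below 0 in 9, and a median difference of 0.00. Among the 13 without a row under their symbol was GLUL, the gene of glutamine synthetase.

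Among the genes that act on glutamate, GLUD1, the gene of glutamate dehydrogenase, had a mean of 308 TPM. The glial glutamate transporters SLC1A2 and SLC1A3 had means of 894 and 560.0 TPM.

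For clearance and breakdown, SLC6A12, the gene of the betaine and GABA transporter, ranged from 30.5 to 82.6 TPM. It was highest in female 4, the library where SLC6A11 was lowest. ALDH5A1, the gene of the succinic semialdehyde dehydrogenase that acts after GABA transaminase, ranged from 101 to 149 TPM. PDXK, the gene of pyridoxal kinase, which helps to make the pyridoxal phosphate that the decarboxylases need, had a mean of 248 TPM.

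Downstream of the receptor, GNAO1, a G protein alpha subunit, had a mean of 186 TPM. The potassium channel genes KCNJ3 and KCNJ9, whose channels open when GABA-B receptors signal, had means of 66.0 and 55.0 TPM. KCTD8, an auxiliary subunit of the receptor, had a mean of 13.9 TPM, while KCTD12 and GNAI1 were listed at 0 in all 6 libraries. Whether KCTD12 and GNAI1 were truly not expressed was not tested.

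The labelled tissue carried cortical markers: SLC17A7, the vesicular glutamate transporter of cortical excitatory neurons, ranged from 783 to 1569 TPM. Summed over the genes with a row, cortical excitatory markers were at 2423 to 4327 TPM over the 6 libraries, general neuronal markers at 5705 to 7852 TPM and astrocyte markers at 1483 to 2279 TPM. Microglial markers summed to 162 to 304 TPM, endothelial and meningeal markers to 366 to 511 TPM, and subcortical excitatory markers to 15.2 to 33.9 TPM. PECAM1 alone, at 252 to 410 TPM, made up most of the endothelial and meningeal sum. All 11 interneuron markers with a row, of 15 listed, were above 0 in every library, and their summed level lay between 1961 and 3006 TPM in the female libraries and between 2668 and 2986 TPM in the male libraries. CCK, which cortical excitatory neurons also express, had a mean of 1468 TPM, and without it the sums ran from 969 to 1488 TPM in the female libraries and from 862 to 1404 TPM in the male libraries. SST, the gene of somatostatin, was at 805 TPM in female 4 and 800.3 TPM in male 1, its highest libraries, where GAD2 was at its lowest. PVALB, the gene of parvalbumin, was highest in female 4, at 131 TPM. The markers did not move together, since female 4 was the lowest library for VIP (50.4 TPM), LHX6 (31.05 TPM) and ADARB2 (4.81 TPM). The part of interneurons in the level of GAD2 was not tested.

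Several markers of striatal projection neurons, which also use GABA, were higher in female 1, female 3 and male 1. The 10 of 15 listed genes with a row summed to 544, 613 and 699 TPM in these 3 libraries and to 254 to 293 TPM in the other 3, and without TAC1 and PENK, the most abundant of them in male 1, to 277, 360.3 and 252 TPM against 131 to 144 TPM. RGS9, a defining marker, was at 48.0, 43.7 and 54.6 TPM there and at 0.35 to 1.52 TPM elsewhere, and ISL1 was at 0 in female 4, male 4 and male 5. The same libraries were higher in some markers of other cells. SLC17A6, of subcortical excitatory neurons, was at 8.43, 11.3 and 13.7 TPM against 1.11 to 3.85 TPM. The oligodendrocyte gene ERMN was at 64.4, 79.5 and 65.6 TPM against 6.63 to 32.5 TPM. The most abundant marker of each of these lists was divided otherwise: TCF7L2 was highest in male 5, at 25.6 TPM. MAG was at 323 TPM in female 4, above female 3 (247 TPM) and male 1 (146 TPM). DRD1, FOXP1 and RARB did not follow this division: DRD1 was at 4.83 TPM in male 4 and 4.02 TPM in male 1. SLC32A1 was high in females 1 and 3 but not in male 1. In a fit with the striatal markers as a covariate, added after seeing the data, the log2 difference of SLC32A1 was 0.28 in place of 0.45, and 0 members were called. In that fit the difference was 0.32 for GAD1, -0.55 for GAD2, -0.12 for SLC6A11, -0.35 for GABBR1 and -0.24 for GABBR2. Loci without a strand took 5.16% of the TPM in male 1 and 7.88% in male 5, against 2.30% to 3.33% in the other 4 libraries. With that share as the covariate the difference was 0.56 for GAD1, -0.43 for GAD2, 0.22 for SLC32A1, -0.28 for SLC6A11, -0.29 for GABBR1 and -0.18 for GABBR2, and 0 members were called.

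**Figure D4:**
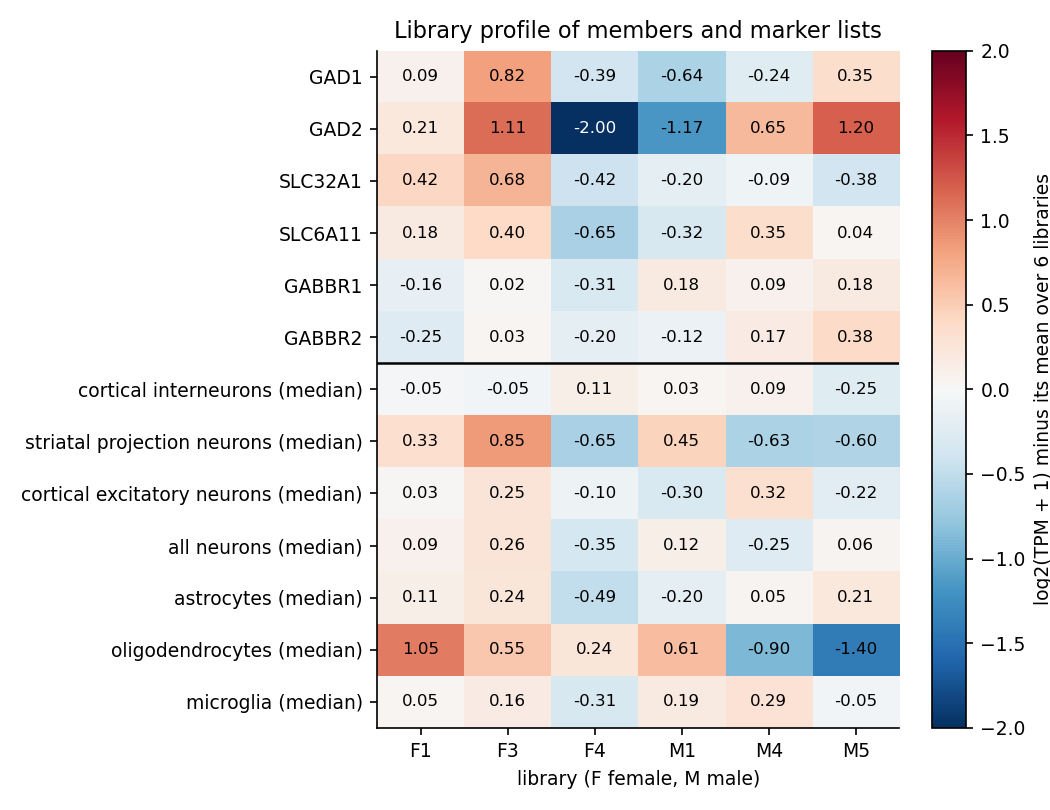
Centred log2(TPM + 1), the value in each library minus the mean of 6 libraries (colour and printed number), for the members and for the median gene of each marker list; x axis, libraries. GAD2 falls to -2.0 in F4, where the median interneuron marker stands at 0.11, and the striatal markers are above their mean in F1, F3 and M1.

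The genes whose profile over the 6 libraries was most like that of GAD1, by the root-mean-square difference of centred log2(TPM + 1), were HELLS (0.092), TRAPPC6B (0.10) and KCNA4 (0.12), against a median of 0.50 over 9692 genes. For GABBR1 they were NRG3 (0.048), FKBP1A (0.053) and SHC4 (0.054), against a median of 0.33. For GAD2, added after its values had been seen, they were SLC39A10 (0.16), ATXN7L3B (0.16) and KIF5C (0.17), against a median of 1.16. KIF5C, the gene of a neuronal kinesin, was at 13.0 TPM in female 4 and 31.1 TPM in male 1, the libraries lowest in GAD2, and was at 62.0 to 123 TPM in the other 4 libraries. These are likenesses over 6 libraries and carry no test.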

How the data were processed

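The authors enriched polyadenylated RNA, mapped paired reads to TS_3.0 with HISAT2 2.2.1 and assembled and quantified genes with StringTie 2.2.1, and animals were not pooled. The deposited TPM are relative to length and library. The deposited FPKM differ from TPM by 1 factor per library. Coverage as deposited is the mean read depth of a locus, not scaled for library size; it ran from 13.2 to 109 for GAD2 and from 217 to 465.5 for SLC32A1. The tables hold no counts, so that no counting intervals are given, and the count test of the authors was not run.

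Rows of one gene identifier and chromosome were summed. Genes reaching 0.1 TPM in 3 libraries were fitted as log2(TPM + 1), all together, with limma 3.58.1 (R 4.3.3, trended variance, no covariate), adjusted by Benjamini-Hochberg within autosomes (27996 genes) and the X chromosome, with a threshold of 0.1. Male-only segments were left out. Differences on this scale understate changes of low genes. Ratios were compared by exact permutation in Python 3.11.15 using scipy 1.17.1, pandas 2.3.3 and numpy 2.4.6; plots were made in matplotlib 3.10.9. The fit was tested on simulated data.

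The members, marker lists and pathway list were chosen with earlier results of these data known. Some genes of the pathway list are not reported here by name. Markers of cortical interneurons, striatal projection neurons, cortical and subcortical excitatory neurons, neurons in general, astrocytes, oligodendrocytes and their precursors, microglia, endothelium and meninges, and choroid plexus were read; choroid plexus markers summed to 1.48 to 9.98 TPM. Genes named beside the members were those of the pathway list, some markers, loci overlapping a member, and the 3 genes most like GAD1 and GABBR1 with at least 1 TPM in all libraries. Marker genes below the highest of their list (SLC17A7, SST, PVALB, VIP, LHX6, ADARB2, TAC3, RGS9, ISL1, TAC1, DRD1, FOXP1, RARB, SLC17A6, ERMN, PDGFRA, VCAN, NEUROD6, CLDN5, FLT1, DCN, COL1A1) and the likeness of GAD2 were chosen after their values were seen. Alternatives varied the pseudocount, filter, scaling, covariates, replicate block and libraries; the coverage-based level and the striatal covariate were added after seeing the data. Female and male animals share the numbers 1 and 4, which the labels do not tie to a shared source.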

Additional observations from a re-analysis of the deposited data

How the results depend on the processing

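Under 21 alternatives 0 members were called, and the smallest adjusted p of any member was 0.604 (limma, Benjamini-Hochberg). The fitted differences of GAD1 and SLC32A1 were above 0 and those of GABBR1 and GABBR2 below 0 in all 21, none of them called, while the difference of GAD2 turned in 2 and that of SLC6A11 in 3. Leaving out 1 library at a time gave 0.03 (without female 3) to 0.63 (without female 4) for GAD1, 0.22 (without female 3) to 0.77 (without female 4) for SLC32A1, -1.15 to 0.43 for GAD2, turning without female 4 (0.43) and male 5 (0.03), -0.41 (without male 1) to -0.16 (without male 5) for GABBR2, -0.39 to -0.22 for GABBR1, and -0.25 to 0.27 for SLC6A11, turning without female 4 (0.27) and male 4 (0.12). The log2 ratio of GAD1 to GAD2 differed by 0.19 (without female 4) to 1.32 (without male 1). The log2 ratio of GABBR1 to GABBR2 ran from -0.12 to 0.13, turning without female 4 (0.03) and male 1 (0.13). On the coverage-based level, added after seeing the data, the difference of GAD1 was 0.12 in place of 0.35. On the same level that of SLC6A11 was 0.010 and that of the receptor ratio 0.0064. On that level the mean share of the summed member level was 13.4% for GAD1 in place of 23.6%, 43.4% for SLC32A1 in place of 32.3%, 2.26% for SLC6A11 in place of 6.53% and 4.999% for GABBR2 in place of 7.55%. With median-ratio scaling or quantile normalization the sexes did not overlap in 2 members, GABBR1 and GABBR2, in place of 1, against 9.90% and 9.84% of all autosomal genes. The cause of these changes was not tested, apart from the fewer samples of the fits without a library.

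Deviations from the mean of each sex correlated at 0.001 between the animals numbered 1 and at 0.038 between those numbered 4. Pairs with different numbers ran from -0.059 to 0.063. With 3 animals per sex, such values cannot show whether same-numbered animals share a source. With the animal number as a replicate block 0 members and 0 pathway genes were called and 2 genes in all in place of 4, with differences of 0.29 for GAD1, -0.64 for GAD2, 0.14 for SLC32A1, -0.25 for SLC6A11, -0.37 for GABBR1 and -0.25 for GABBR2. Calls over all autosomal genes ranged from 0, with the share of strandless loci as a covariate or without a variance trend, to 5. With 3 animals of each sex and no read counts, a small difference could not be separated from the spread between animals, least of all for GAD2.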
